A study of Mus musculus with 24 samples.

Results

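The translation initiation and elongation factors described here are the protein-coding genes whose symbols begin with Eif1 to Eif5 or with Eef1 or Eef2. The Eif2ak kinases, the Eif4ebp genes, Eif4enif1, Eif1ad with its copies, Eif2s3y and Eef2k were left out by the rule, as was Eif6, and 10 pseudogenes with matching symbols are not members. This gave 56 of 55471 genes in the count tables, of which 21974 are protein coding. By role, 11 members act in start codon recognition, 5 form the exchange factor eIF2B, 14 form eIF3, 12 belong to the eIF4 group of cap-binding proteins and helicases, 9 are elongation factors and 5 are methyltransferases that modify elongation factors.

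Expression was measured by RNA sequencing of poly(A) RNA in 24 libraries from preimplantation mouse embryos of the hybrid B6D2F1, each library a pool of 10 embryos. The groups, of 4 libraries each, were Ttf1 knockout, Zfp622 knockout and wild type at the morula stage, and the same 3 genotypes at the late 2-cell stage (L2C). Zygotes of the knockout groups were injected with Cas9 protein together with 3 guides for Ttf1 or 3 guides for Zfp622. They are pools of directly injected embryos, for which the alleles of single embryos are not given. Wild-type titles hold an unexplained NC, and the labels leave unsaid whether wild-type zygotes were injected. Ttf1 encodes a termination factor of RNA polymerase I, and the human and yeast counterparts of Zfp622 act in late maturation of the large ribosomal subunit.

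Total counts per library ran from 10538723 to 17807596. Levels are CPM, read pair counts relative to library size after TMM scaling over all libraries, errors are SD over 4 libraries, and a gene was called at an edgeR adjusted p of at most 0.05. Ttf1 had 27.1 ± 3.82 CPM in Ttf1 knockout and 74 ± 4.27 CPM in wild type at L2C, and 31 ± 1.66 CPM in Ttf1 knockout and 52.9 ± 1.5 CPM in wild type at morula. Zfp622 had 60.4 ± 18.8 CPM in Zfp622 knockout and 161 ± 7.39 CPM in wild type at L2C, and 18.4 ± 7.49 CPM in Zfp622 knockout and 64 ± 6.22 CPM in wild type at morula. All 4 differences were called. Every Ttf1 knockout library was sequenced on lane 1 and every other library on lane 2, so that lane and Ttf1 knockout cannot be told apart. A second index number marks library 4 of wild-type L2C and libraries 3 and 4 of wild-type morula. Calls of members that rest on them are given with and without them. In pooled embryos, fewer cells of a type and less RNA per cell cannot be told apart.

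Translation of an mRNA begins when eIF4E binds its cap and eIF4G recruits the helicase eIF4A, while eIF3 joins the small ribosomal subunit and eIF2 delivers the initiator tRNA. eIF1 and eIF1A guard the choice of start codon, eIF5 triggers GTP hydrolysis on eIF2, eIF5B joins the large subunit, and eIF2B recharges eIF2 with GTP for the next round. During elongation eEF1A delivers aminoacyl-tRNA, the eEF1B complex recharges eEF1A, and eEF2 moves the ribosome along. The early mouse embryo first translates mRNAs stored in the oocyte and from the 2-cell stage onward depends on its own transcription. In cultured mammalian cells, mRNAs of many elongation factors and of some eIF3 subunits start with a run of pyrimidines, the 5′ terminal oligopyrimidine (TOP) motif, through which mTOR controls their translation.

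The promoter windows of 4 TOP members and of Eif4e are shown because all 8 TOP members were called higher in wild-type morulae than in wild-type L2C embryos. Their log2 fold changes differed widely, from 0.97 to 5.13. Eif4e, which encodes the cap-binding protein, was not called higher. Each window runs 5′ to 3′ on the gene's own strand from 30 bases before the annotated start to 20 bases from it, in RefSeq on GRCm38.p6, and its longest run of C and T is in capitals. Eef1a1 encodes the main eEF1A, with the window at chr9:78481705-78481754 on the minus strand. Eef1b2, an exchange subunit of eEF1B, has chr1:63176801-63176850 on the plus strand. Eef2 has chr10:81176601-81176650, the eIF3 subunit gene Eif3f has chr7:108934385-108934434 and Eif4e has chr3:138526161-138526210, all on the plus strand.
Eef1a1: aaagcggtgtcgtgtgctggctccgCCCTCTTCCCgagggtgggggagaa
Eef1b2: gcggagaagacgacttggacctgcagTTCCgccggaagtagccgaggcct
Eef2: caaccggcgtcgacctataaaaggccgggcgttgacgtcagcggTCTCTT
Eif3f: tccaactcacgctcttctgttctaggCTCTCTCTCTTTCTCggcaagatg
Eif4e: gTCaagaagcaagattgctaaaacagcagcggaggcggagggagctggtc

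Within the window the run is 15 bases long in Eif3f, 10 in Eef1a1, 6 in Eef2, 4 in Eef1b2 and 2 in Eif4e. In Eef2 it reaches the last base of the window, so 6 bases is a lower bound. Outside the TOP list it is also 4 bases long in Eif2s2, which was called higher between the stages. In Eif5b, which was not called between them, it is 5 bases long. Whether run length goes with the stage change was not tested. The run crosses the annotated start in Eif3f and Eef1a1, lies before it in Eef1b2 and Eif4e, and after it in Eef2. A run of at least 8 bases, each of them C or T, was searched on the gene's own strand in these windows of 50 bases. Such a run could lie on either side of the annotated start. The search therefore does not measure the TOP motif, which begins at the first base of the mRNA. A run of this length was present in 10 of the 43 members with an entry (23.3%) and in 6182 of 27025 genes with an entry (22.9%). Of the 8 TOP members, 4 had an entry and 2 of these 4 held the run within the window, which cuts the run of Eef2. The median of the longest run was 5 bases both for members and for all genes.

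Between the 2 stages of normal development most of the machinery was more abundant at the later one. Of 55 tested members, 40 were higher and 10 lower in wild-type morulae than in wild-type L2C embryos. Among all 18864 tested genes 37.9% were higher and 46.1% lower, 84% in all. The share of members called (90.9%) is near that background, while the share called higher was 72.7%. The median log2 fold change was 1.58 over the members and -0.30 over all tested genes. Members together held 38357 ± 1240 CPM in wild-type morulae, against 13317 ± 596 CPM in wild-type L2C embryos. The size of this rise depends on the TMM scaling. Without it they held 3.12% of all counts in wild-type morulae and 1.61% in wild-type L2C embryos, a smaller rise.

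**Figure D1:**
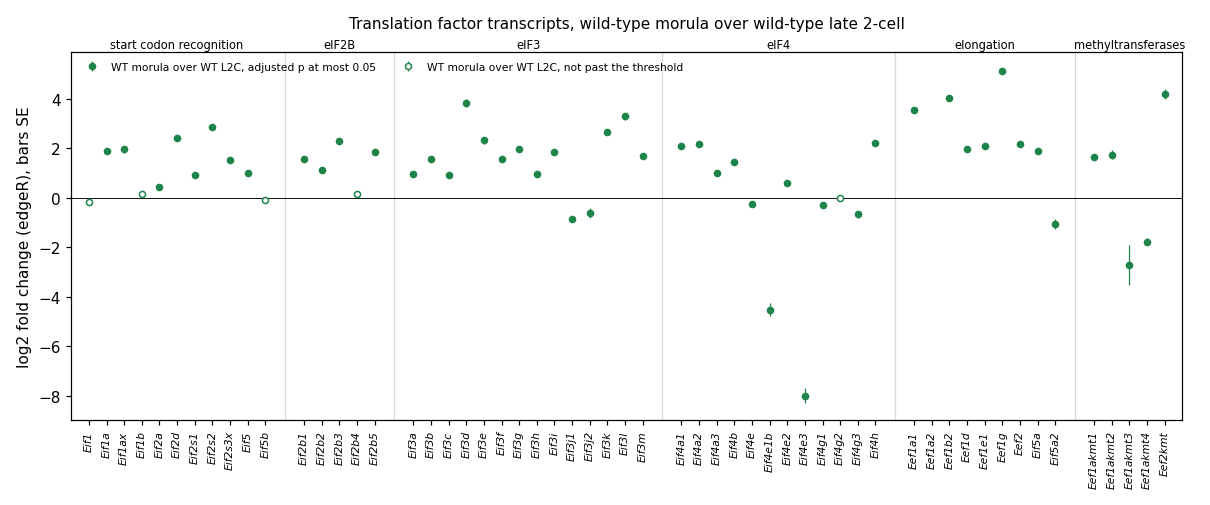
Log2 fold change of each tested member, wild-type morula over wild-type L2C, grouped by role; points are fitted values with their standard errors. Of 55 members 40 lie above 0 and were called higher and 10 were called lower, and Eif4e3 and Eif4e1b lie farthest below 0.

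Elongation factors held 12169 ± 321 CPM together in wild-type morulae and 1868 ± 81.6 CPM in wild-type L2C embryos. Without TMM scaling they held 0.99% of all counts in wild-type morulae and 0.226% in wild-type L2C embryos. Of 8 tested, 7 were called higher and 1 lower. Eef1g, which encodes the structural subunit of eEF1B, had 1471, 1426, 1464 and 1389 CPM in wild-type morula libraries, against 44.3, 45.9, 35 and 39.3 CPM in wild-type L2C libraries. Every morula library lay far above every L2C library, and the log2 fold change of 5.13 (SE 0.09, adjusted p = 6.82e-27) was the highest of the members. Eef1b2 had 760, 703, 731 and 710 CPM in wild-type morula libraries, against 45.8, 39.5, 47.1 and 46.6 CPM in wild-type L2C libraries, a log2 fold change of 4.02 (SE 0.10, adjusted p = 1.3e-24). Eef1a1 had 4952, 4432, 4659 and 4837 CPM in wild-type morulae and 434, 420, 347 and 398 CPM in wild-type L2C embryos, a log2 fold change of 3.56 (SE 0.08, adjusted p = 3.43e-25). Neither gene's groups overlapped. Eef2, the translocase, averaged 497 ± 27.2 CPM in wild-type morulae and had a log2 fold change of 2.19 over wild-type L2C embryos. The eEF1B subunit gene Eef1d (1.98) and the gene of the associated scaffold protein Eef1e1 (2.08) also rose on the log2 scale. Reads that map to several places were not counted. Close copies elsewhere in the genome cover 77.4% of the Eef1a1 and 72% of the Eef1g transcript. Reads from these stretches can be missing from the counts of both genes, and where the counted reads fall was not tested.

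The TOP list holds Eef1a1, Eef1b2, Eef1d, Eef1g, Eef2, Eif3e, Eif3f and Eif3h, chosen from knowledge of human cells. All 8 were called higher, with a median log2 fold change of 2.26. The 47 other tested members had a median of 1.45, with 32 higher and 10 lower. Within the list Eif3h rose least (0.97) and Eif3f had 1.59.

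Eif5a encodes the factor that relieves stalled ribosomes, and Eif5a2 is its less widely expressed paralog. Eif5a averaged 3614 ± 175 CPM in wild-type morulae and 969 ± 95 CPM in wild-type L2C embryos, a log2 fold change of 1.90. Eif5a2 had 4.6, 6.78, 10.2 and 9.62 CPM in wild-type morulae, against 19.7, 16.2, 12.6 and 16.8 CPM in wild-type L2C embryos, and fell by 1.06 on the log2 scale (SE 0.21, adjusted p = 3.99e-05). All Eif5a2 values at morula lay below all values at L2C. Eef1a2, the eEF1A of adult muscle and neurons, had 0 counts in all 12 morula libraries, where 3 counts correspond to 0.213 to 0.29 CPM, and at most 0.214 CPM in any L2C library, where they correspond to 0.181 to 0.237 CPM, and was not tested.

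Of the 14 eIF3 genes, 12 were called higher and 2 lower. Their sum was 6611 ± 222 CPM in wild-type morulae and 2269 CPM on average in wild-type L2C embryos. Without TMM scaling it was 0.538% of all counts in wild-type morulae and 0.275% in wild-type L2C embryos. Eif3d encodes the subunit that can itself bind the cap of some mRNAs in human cells. It had 330, 325, 328 and 323 CPM in wild-type morulae, against 25.6, 25.6, 18.4 and 20.8 CPM in wild-type L2C embryos. The groups lay far apart, with a log2 fold change of 3.85 (SE 0.16, adjusted p = 1.8e-18), the largest within eIF3. The genes of the peripheral subunits Eif3l (3.30), Eif3k (2.67) and Eif3e (2.33) also rose on the log2 scale. Eif3j1 averaged 160 CPM in wild-type morulae and 292 CPM in wild-type L2C embryos and fell by 0.87 on the log2 scale, and its near-copy Eif3j2 fell by 0.61 with overlapping groups, a call lost without the wild-type libraries marked by a second index number. Copies cover 60.6% of the Eif3j1 and 100% of the Eif3j2 transcript, so how the reads were divided between both is uncertain. Eif3j is a loosely bound subunit that is not part of the eIF3 core.

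Per kilobase of merged exons, the eIF3 genes spanned a 36.3-fold range in wild-type L2C embryos, with Eif3h highest (165 CPM per kb) and Eif3d lowest (4.55 CPM per kb). In wild-type morulae the range was 17.2-fold, with Eif3h highest (322 CPM per kb) and Eif3j2 lowest (18.7 CPM per kb). The median eIF3 gene had 136 CPM per kb in wild-type morulae and 40 CPM per kb in wild-type L2C embryos. The order of ranges depends on length: per kilobase of the longest coding transcript they were 17.2-fold at L2C and 36.4-fold at morula, where Eif3k was highest (680 CPM per kb).

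**Figure D2:**
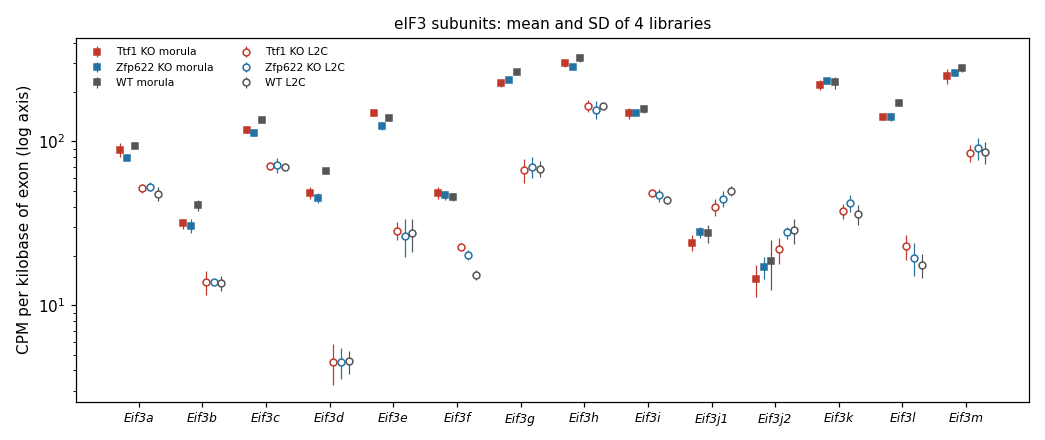
Mean level of each eIF3 gene in the 6 groups in CPM per kilobase of merged exons, on a log axis, with bars for SD over 4 libraries, filled for morula and open for L2C. Eif3h lies highest at both stages, and Eif3d is lowest in wild-type L2C embryos at 4.55 CPM per kb.

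In start codon recognition 8 of 11 members were called higher in wild-type morulae and none lower. Eif2s2, the beta subunit of eIF2, averaged 4363 ± 191 CPM in wild-type morulae and 607 ± 84.6 CPM in wild-type L2C embryos, a log2 fold change of 2.85. Eif2d, which can deliver initiator tRNA outside eIF2, rose by 2.44 on the log2 scale. Eif1a and its X-linked paralog Eif1ax rose by 1.91 and 1.97 on that scale. The 3 members not called were Eif1 (log2 fold change -0.15), Eif1b (0.15) and Eif5b (-0.10). All but Eif2b4 (0.15, not called) of the 5 eIF2B genes were called higher, and Eif2b3 had the log2 fold change 2.30.

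The eIF4 group was divided, with 6 of 12 genes called higher and 5 lower in wild-type morulae. The helicase genes Eif4a1 (2.09) and Eif4a2 (2.19) and their cofactor Eif4h (2.21) rose on the log2 scale. Of the cap-binding paralogs, Eif4e2 rose and the others fell. Eif4e2, a weak cap binder known as a repressor of translation, had 163 to 180 CPM in wild-type morulae, all above the highest wild-type L2C library (129 CPM), a log2 fold change of 0.58 (adjusted p = 2.78e-06) that was not called with total counts only. Eif4e3 had 0.586, 0.165, 0.569 and 0.534 CPM in wild-type morula libraries, against 123 ± 11 CPM and at most 131 CPM in wild-type L2C libraries. Eif4e1b, known as the oocyte form of eIF4E, had 0.335, 1.16, 1.42 and 0.993 CPM in wild-type morulae, against 21.4, 21.2, 24.2 and 25.7 CPM in wild-type L2C embryos. Both genes were near 0 in all wild-type morula libraries, and the log2 fold changes were -8.00 (SE 0.30, adjusted p = 1.13e-18) for Eif4e3 and -4.53 (SE 0.26, adjusted p = 7.13e-16) for Eif4e1b. Eif4e itself had 1724, 1426, 1822 and 1616 CPM in wild-type morulae and 1812, 1968, 2073 and 1917 CPM in wild-type L2C embryos, a log2 fold change of -0.24 (adjusted p = 0.0082) with overlapping libraries that was not called without wild-type morula library 2. The scaffold genes Eif4g3 (-0.67) and Eif4g1 (-0.28) were called lower, and Eif4g2 (-0.02) was not called.

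**Figure D3:**
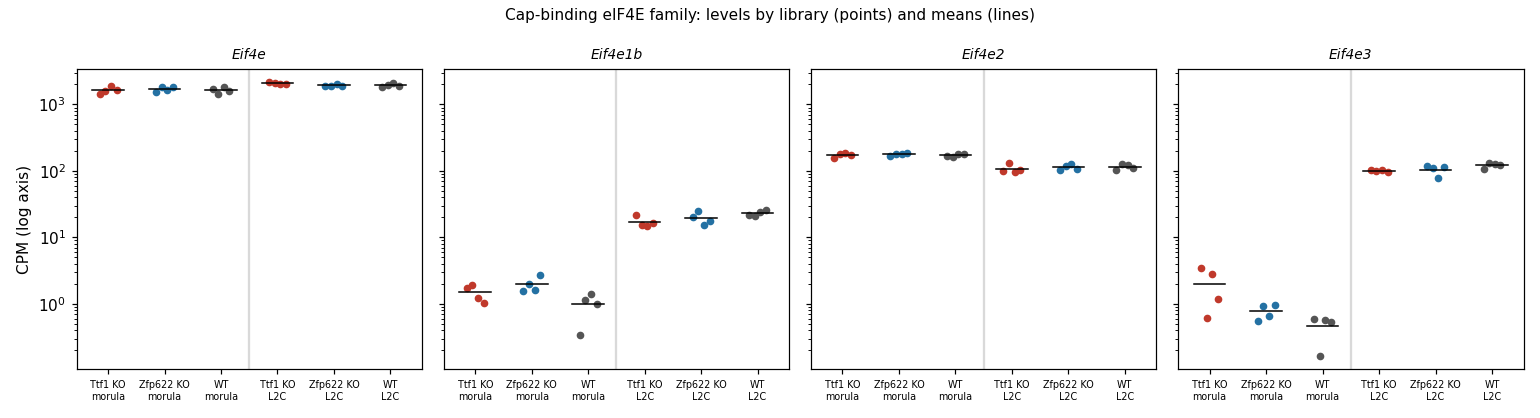
CPM of Eif4e, Eif4e1b, Eif4e2 and Eif4e3 in each library by group, on a log axis, with knockouts left of wild type. Eif4e3 averages 123 CPM in wild-type L2C libraries and lies below 1 CPM in all wild-type morula libraries.

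Among the methyltransferases 3 of 5 were called higher and 2 lower. Eef2kmt, which modifies eEF2, had 54.5, 59, 62.5 and 45.7 CPM in wild-type morulae, against 3.94, 2.45, 3.58 and 2.05 CPM in wild-type L2C embryos. The groups did not overlap, and the log2 fold change was 4.20 (SE 0.20, adjusted p = 8.08e-18). Eef1akmt4 averaged 14.2 ± 1.51 CPM in wild-type morulae and 48.5 ± 6.23 CPM in wild-type L2C embryos and fell by 1.77 on the log2 scale. Eef1akmt3 averaged 0.116 CPM in wild-type morulae and 0.825 CPM in wild-type L2C embryos, with a log2 fold change of -2.72 at these low levels. It passed the filter on low counts only with the knockout libraries included and was not tested in a fit of the wild-type groups alone.

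The stage comparison depends on scaling. With total counts only, the median log2 fold change of all tested genes was -0.873, against -0.298 with TMM, and 38 members were called higher and 15 lower with a median of 1.00. Eif1, Eif1b, Eif2b4, Eif4g2 and Eif5b then were called lower.

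Per kilobase of merged exons, the highest members in wild-type L2C embryos were Eif5a (408 ± 40 CPM per kb), Eif1 (371), Eif4e (323), Eif5 (202) and Eif4a3 (182). Eif5a and Eif1 overlapped there. In wild-type morulae the order was Eef1a1 (1893 ± 90.9 CPM per kb), Eif5a (1521 ± 73.8), Eif2s2 (646), Eef1g (553) and Eif5 (409). Eif5 encodes the GTPase-activating protein of eIF2, and Eif4a3 the helicase of the exon junction complex. With the longest coding transcript as length, Eef1a1 (2631 CPM per kb) and Eif5a (2515) overlapped in wild-type morulae.

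At L2C the knockouts differed little from wild type. In Ttf1 knockout L2C embryos 3 of 55 members were called (5.45%), 1 higher and 2 lower, where 1.54% of all tested genes were called, 0.739% higher and 0.799% lower. All members together held 13151 ± 369 CPM in Ttf1 knockout, 13349 ± 282 CPM in Zfp622 knockout and 13317 ± 596 CPM in wild type. The sum of 11 markers of the 2-cell stage was 604 CPM (474 to 729) in Ttf1 knockout, 645 CPM (505 to 931) in Zfp622 knockout and 809 CPM (652 to 925) in wild type, and their part in the members' differences was not tested.

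Eif3f had 67.1, 68.5, 67.4 and 61 CPM in Ttf1 knockout L2C libraries, 52.7, 58.5, 61.1 and 61.4 CPM in Zfp622 knockout and 48.8, 43.7, 41.2 and 43.1 CPM in wild type. All libraries of both knockouts lay above all wild-type libraries. The log2 fold change was 0.57 (SE 0.09, adjusted p = 0.00551) in Ttf1 knockout and 0.40 (adjusted p = 0.419) in Zfp622 knockout. Eif2s2 had 461, 410, 457 and 369 CPM in Ttf1 knockout, 558, 620, 590 and 618 CPM in Zfp622 knockout and 536, 726, 561 and 603 CPM in wild type. Ttf1 knockout libraries lay below all others, with a log2 fold change against wild type of -0.52 (SE 0.09, adjusted p = 0.00888). Copies cover 39% of the Eif2s2 transcript.

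Eif5b had 242, 249, 217 and 212 CPM in Ttf1 knockout, 238, 276, 286 and 274 CPM in Zfp622 knockout and 270, 352, 286 and 279 CPM in wild type. Ttf1 knockout lay below wild type without overlap, with a log2 fold change of -0.37 (SE 0.09, adjusted p = 0.044). That call was lost with total counts only and when any one of the 8 libraries other than wild-type L2C library 1 was left out. Part of the Eif5b transcript (19.6%) lies in the overlapping gene Rev1, and reads were counted without strand.

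Between Zfp622 knockout and wild-type L2C embryos edgeR called 0 of 55 members, where 0.0179% of all tested genes were called. Unadjusted p was under 0.05 for 3 members, where 6.43% of all tested genes had such a p, and DESeq2 called 1 member, Eif3f, against 0.125% of all tested genes. Between Ttf1 knockout and Zfp622 knockout L2C embryos edgeR called 0 members as well, beside 0.0358% of all tested genes. Unadjusted p was under 0.05 for 6 members (8.12% of all tested genes), and DESeq2 called 1 member, Eif2s2 (0.447% of all tested genes).

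At morula the knockouts differed from wild type in many members, as they did in many genes. In Ttf1 knockout morulae 21 of 54 tested members were called (38.9%), 8 higher and 13 lower, where 39.2% of all 14865 tested genes were called, 21.3% higher and 17.9% lower. In Zfp622 knockout morulae 20 were called (37%), 6 higher and 14 lower, where 29.1% of all tested genes were called, 15.6% higher and 13.5% lower. The median log2 fold change of the members was -0.07 in Ttf1 knockout and -0.08 in Zfp622 knockout, where all tested genes had 0.04 in Ttf1 knockout and 0.03 in Zfp622 knockout. All members together held 37827 ± 911 CPM in Ttf1 knockout morulae, 37137 ± 954 CPM in Zfp622 knockout and 38357 ± 1240 CPM in wild type. The libraries of these groups overlapped. The counts by role that follow stand beside the shares of all tested genes given here. Both comparisons share the wild-type morula libraries. Without wild-type morula libraries 3 and 4, 13 of the 21 members stayed called in Ttf1 knockout and 11 of the 20 in Zfp622 knockout, where 22.4% of all tested genes were called in Ttf1 knockout and 12.9% in Zfp622 knockout.

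**Figure D4:**
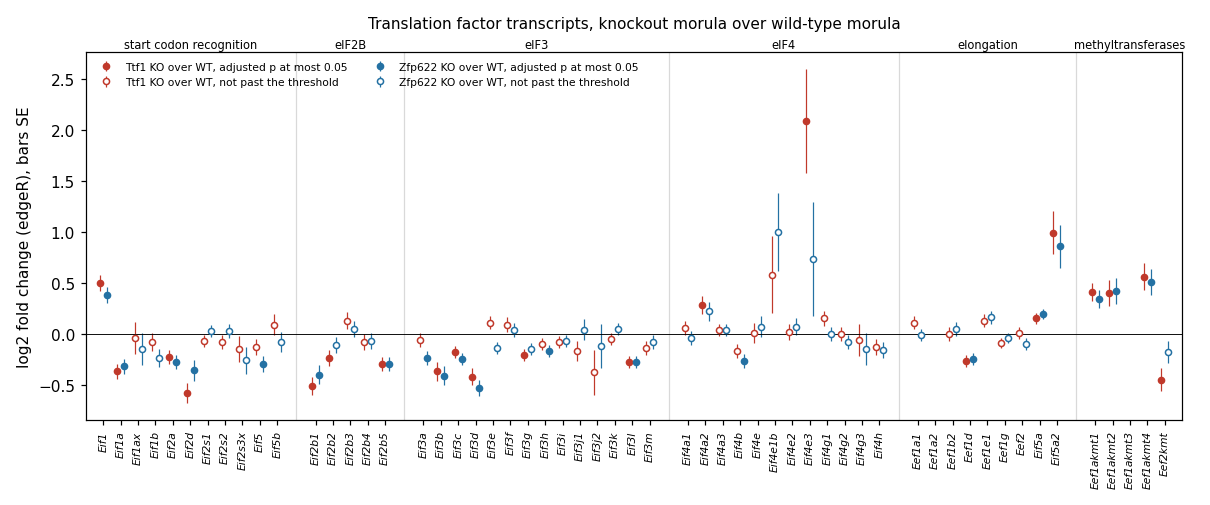
Log2 fold change with standard error of each tested member at morula, for Ttf1 knockout over wild type and Zfp622 knockout over wild type, grouped by role. The eIF3 and eIF2B genes lie mostly below 0, and Eif4e3 in Ttf1 knockout lies highest at 2.09.

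In start codon recognition, 1 member was higher in each knockout, and 3 members were lower in Ttf1 knockout and 4 in Zfp622 knockout. The shares called were 36.4% in Ttf1 knockout and 45.5% in Zfp622 knockout, where 39.2% and 29.1% of all tested genes were called. Eif1, the guardian of start codon choice, had 1100, 965, 962 and 930 CPM in Ttf1 knockout morulae, 892, 1037, 876 and 814 CPM in Zfp622 knockout and 618, 715, 743 and 728 CPM in wild type. All libraries of both knockouts lay above wild type. The log2 fold change was 0.50 (SE 0.08, adjusted p = 0.000157) in Ttf1 knockout and 0.38 (adjusted p = 0.00234) in Zfp622 knockout. Eif2d had 211, 151, 184 and 188 CPM in Ttf1 knockout, 220, 221, 223 and 189 CPM in Zfp622 knockout and 276, 283, 308 and 235 CPM in wild type. It lay below wild type in both, with log2 fold changes of -0.58 (SE 0.10, adjusted p = 0.000205) in Ttf1 knockout and -0.36 (adjusted p = 0.00951) in Zfp622 knockout. Eif1a had 541, 478, 577 and 599 CPM in Ttf1 knockout, 575, 557, 535 and 605 CPM in Zfp622 knockout and 736, 711, 731 and 680 CPM in wild type. Both knockouts lay below wild type without overlap, with log2 fold changes of -0.37 (adjusted p = 0.000686) in Ttf1 knockout and -0.32 (adjusted p = 0.0033) in Zfp622 knockout. Eif2a, which can deliver initiator tRNA under stress, was also lower in both, with log2 fold changes of -0.23 in Ttf1 knockout and -0.28 in Zfp622 knockout. Eif5 averaged 2540 CPM in Ttf1 knockout, 2253 CPM in Zfp622 knockout and 2788 CPM in wild type, and was called lower in Zfp622 knockout (log2 fold change -0.30, adjusted p = 0.0136), though not without wild-type libraries 3 and 4.

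eIF2B genes held 1305 ± 114 CPM together in Ttf1 knockout morulae, 1336 ± 75 CPM in Zfp622 knockout and 1573 ± 74.1 CPM in wild type. Of 5 genes 3 were lower in Ttf1 knockout and 2 in Zfp622 knockout, and none was higher. Of all tested genes 17.9% were lower in Ttf1 knockout and 13.5% in Zfp622 knockout. Eif2b1, the alpha subunit, had 449, 542, 574 and 605 CPM in Ttf1 knockout, 547, 628, 599 and 569 CPM in Zfp622 knockout and 770, 753, 844 and 739 CPM in wild type. All knockout libraries lay below all wild-type libraries. The log2 fold change was -0.51 (SE 0.09, adjusted p = 0.000283) in Ttf1 knockout and -0.40 (adjusted p = 0.00294) in Zfp622 knockout. Eif2b5, the catalytic subunit, averaged 152 CPM in each knockout and 188 CPM in wild type and had a log2 fold change of -0.30 in both. In Zfp622 knockout its call was lost without wild-type libraries 3 and 4. Eif2b2, the beta subunit, was called lower in Ttf1 knockout (-0.24, adjusted p = 0.026), a call lost in the same way and also without Ttf1 knockout library 1 or 3 or wild-type library 3, and had -0.11 (adjusted p = 0.317) in Zfp622 knockout.

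**Figure D5:**
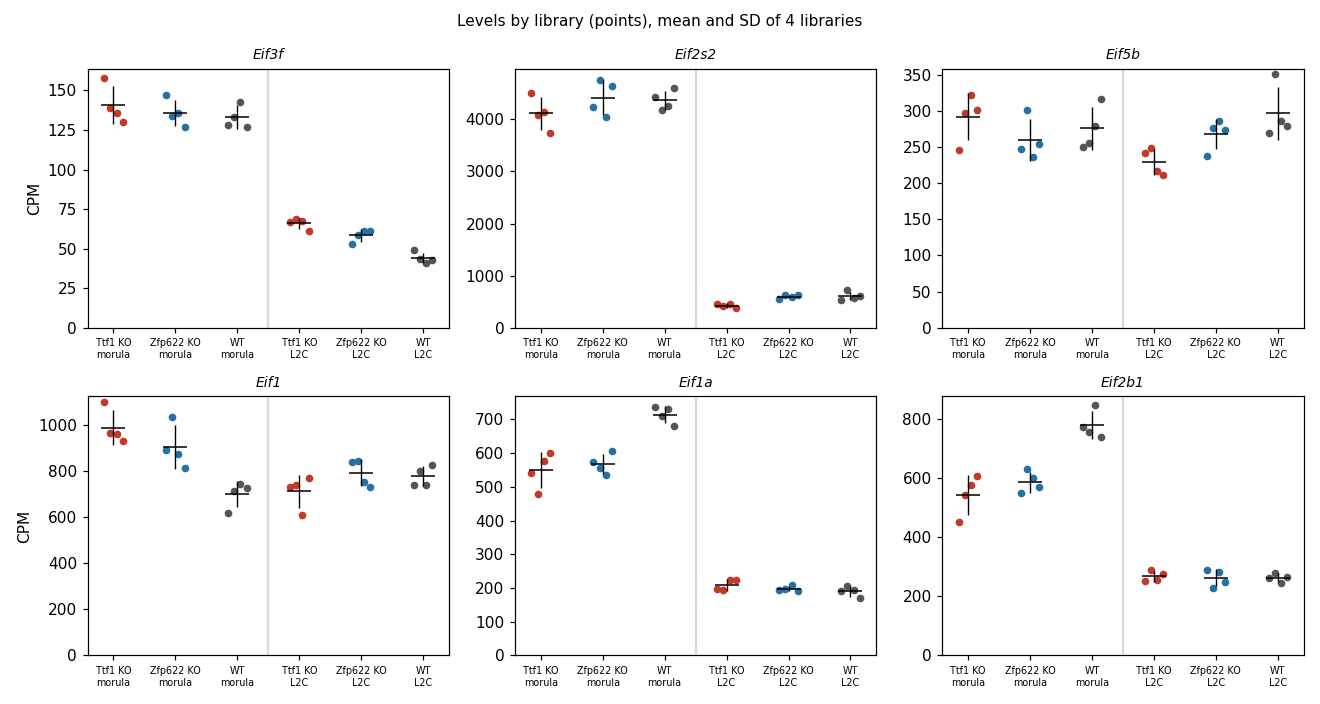
CPM of Eif3f, Eif2s2, Eif5b, Eif1, Eif1a and Eif2b1 in each library by group, with the group mean and SD, on axes that start at 0, morula groups left of L2C groups and knockouts left of wild type. Eif1 lies above wild type and Eif1a and Eif2b1 below it in every knockout morula library, and Eif3f lies above wild type in every knockout L2C library.

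The eIF3 genes held 6091 ± 179 CPM together in Ttf1 knockout morulae, 5879 ± 47.7 CPM in Zfp622 knockout and 6611 ± 222 CPM in wild type, and no knockout library (up to 6280 and 5940 CPM) reached the lowest wild-type library (6394 CPM). Of 14 genes, 5 were lower in Ttf1 knockout (35.7%) and 6 in Zfp622 knockout (42.9%), and none was higher. Of all tested genes, 39.2% were called in Ttf1 knockout, 17.9% lower, and 29.1% in Zfp622 knockout, 13.5% lower. The log2 fold change was negative for 12 genes in Ttf1 knockout and 11 in Zfp622 knockout, with a median of -0.16 in Ttf1 knockout and -0.15 in Zfp622 knockout. Eif3d had 216, 251, 236 and 265 CPM in Ttf1 knockout, 239, 216, 237 and 205 CPM in Zfp622 knockout and 330, 325, 328 and 323 CPM in wild type. Each knockout lay below wild type without overlap, with log2 fold changes of -0.42 (SE 0.08, adjusted p = 0.000462) in Ttf1 knockout and -0.53 (adjusted p = 0.000153) in Zfp622 knockout. Eif3l averaged 514 ± 20.8 CPM in Ttf1 knockout, 513 ± 28.4 CPM in Zfp622 knockout and 627 ± 32.3 CPM in wild type (log2 fold change -0.28 in both, adjusted p = 0.00192 in Ttf1 knockout and 0.00309 in Zfp622 knockout). The core scaffold gene Eif3b was lower in both, with log2 fold changes of -0.37 in Ttf1 knockout and -0.41 in Zfp622 knockout. Eif3c, another core subunit, was also lower in both (-0.18 in Ttf1 knockout and -0.25 in Zfp622 knockout). Eif3g was called in Ttf1 knockout (-0.21), and Eif3a (-0.24, adjusted p = 0.0185) and Eif3h (-0.17, adjusted p = 0.0333) in Zfp622 knockout. Without wild-type libraries 3 and 4 the calls of Eif3b, Eif3c and Eif3g in Ttf1 knockout and of Eif3a, Eif3c and Eif3h in Zfp622 knockout were lost. Eif3c in Ttf1 knockout was also lost without Ttf1 knockout library 1. Eif3h was likewise lost with total counts only, without a filter, and without wild-type library 2, wild-type library 3 or Zfp622 knockout library 1.

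In the eIF4 group 2 of 12 genes were higher in Ttf1 knockout and 1 was lower in Zfp622 knockout. Eif4e3 had 3.49, 0.606, 2.77 and 1.19 CPM in Ttf1 knockout morulae, 0.55, 0.933, 0.655 and 0.968 CPM in Zfp622 knockout and 0.586, 0.165, 0.569 and 0.534 CPM in wild type. Ttf1 knockout libraries all exceeded wild type, one of them narrowly, on 7 to 44 reads per library. The log2 fold change was 2.09 (SE 0.51, adjusted p = 0.00364) in Ttf1 knockout, and 0.73 (adjusted p = 0.348) in Zfp622 knockout. In a fit of Ttf1 knockout and wild type alone Eif4e3 did not pass the filter on low counts and was not tested. The same gene had 123 ± 11 CPM in wild-type L2C embryos. Eif4a2 averaged 1208 ± 47.6 CPM in Ttf1 knockout, 1153 ± 187 CPM in Zfp622 knockout and 998 ± 52.3 CPM in wild type. Its log2 fold change was 0.28 (adjusted p = 0.0156) in Ttf1 knockout, not called without wild-type library 4 or without libraries 3 and 4, and 0.22 (adjusted p = 0.0687) in Zfp622 knockout, called without Zfp622 knockout library 2. Eif4b, a cofactor of eIF4A, had a log2 fold change of -0.27 (adjusted p = 0.0124) in Zfp622 knockout, a call lost without wild-type libraries 3 and 4.

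Elongation factors held 12733 ± 467 CPM together in Ttf1 knockout morulae, 12451 ± 349 CPM in Zfp622 knockout and 12169 ± 321 CPM in wild type. Of 8 tested, 2 were higher and 1 lower in each knockout. Eif5a2 had 15.5, 18.7, 15.5 and 12 CPM in Ttf1 knockout, 12.9, 15.9, 14.8 and 12.6 CPM in Zfp622 knockout and 4.6, 6.78, 10.2 and 9.62 CPM in wild type. All knockout libraries lay above wild type, with log2 fold changes of 0.99 (SE 0.21, adjusted p = 0.00126) in Ttf1 knockout and 0.86 (adjusted p = 0.00535) in Zfp622 knockout. Eef1d averaged 534 ± 11.6 CPM in Ttf1 knockout, 540 ± 26.9 CPM in Zfp622 knockout and 648 ± 23.8 CPM in wild type and was lower in Ttf1 knockout (log2 fold change -0.27) and in Zfp622 knockout (-0.25), the second call being lost without wild-type libraries 3 and 4. Eif5a averaged 3979 CPM in Ttf1 knockout, 4082 CPM in Zfp622 knockout and 3614 CPM in wild type, with log2 fold changes of 0.15 (adjusted p = 0.0393) in Ttf1 knockout and 0.19 (adjusted p = 0.016) in Zfp622 knockout. The Ttf1 call of Eif5a was lost under 12 of 15 alternatives, among them leaving out any one wild-type library, wild-type libraries 3 and 4 together, or Ttf1 knockout library 2, 3 or 4. In Zfp622 knockout it was lost without wild-type library 1, 2 or 3 or without Zfp622 knockout library 2 or 4. Eef1a1, Eef1b2, Eef1g and Eef2 were called in neither knockout. Of the 8 TOP members, 0 were higher and 1 was lower in Ttf1 knockout, and 0 were higher and 2 lower in Zfp622 knockout. The shares called were 12.5% in Ttf1 knockout and 25% in Zfp622 knockout, where 39.2% and 29.1% of all tested genes were called.

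Methyltransferases were the role with the highest median log2 fold change, 0.40 in Ttf1 knockout and 0.38 in Zfp622 knockout, with 3 of 4 tested genes higher in each. Eef1akmt1 averaged 199 ± 7.53 CPM in Ttf1 knockout morulae, 190 ± 24.6 CPM in Zfp622 knockout and 152 ± 12.1 CPM in wild type, with log2 fold changes of 0.41 (adjusted p = 0.00163) in Ttf1 knockout and 0.34 (adjusted p = 0.00775) in Zfp622 knockout. Eef1akmt4 averaged 20.9 CPM in Ttf1 knockout (0.56, adjusted p = 0.00326), 20.2 CPM in Zfp622 knockout (0.51, adjusted p = 0.00845) and 14.2 CPM in wild type. Eef1akmt2 averaged 26.4 CPM in Ttf1 knockout (0.40, adjusted p = 0.0235), 26.8 CPM in Zfp622 knockout (0.42, adjusted p = 0.0234) and 20.1 CPM in wild type. All 3 modify lysines of eEF1A, as known from human cells. The calls of Eef1akmt2 and Eef1akmt4 were lost in both knockouts without wild-type libraries 3 and 4. Those of Eef1akmt2 were also lost without wild-type library 3 alone or library 4 alone, in Ttf1 knockout without Ttf1 knockout library 1, and in Zfp622 knockout without Zfp622 knockout library 1, 2 or 4. Eef2kmt was lower in Ttf1 knockout (40.3 CPM, against 55.4 CPM in wild type, log2 fold change -0.45, adjusted p = 0.00374) and averaged 48.3 CPM in Zfp622 knockout (-0.18, adjusted p = 0.219).

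Between Ttf1 knockout and Zfp622 knockout morulae edgeR called 0 of 54 members, where 0.229% of all tested genes were called. Unadjusted p was under 0.05 for 7 members (13.2% of all tested genes), and DESeq2 called 1 member, Eif3e (2.04% of all tested genes). Eif3e averaged 995 ± 31.2 CPM in Ttf1 knockout and 834 ± 44.8 CPM in Zfp622 knockout, without overlap, and edgeR gave a log2 fold change of 0.25 (adjusted p = 0.071). It was called by edgeR without Ttf1 knockout library 1 or without Zfp622 knockout library 4.

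Stage markers moved with these groups at morula. The sum of 12 morula and lineage markers was 984 CPM in Ttf1 knockout (894 to 1138), 1170 CPM in Zfp622 knockout (894 to 1368) and 1711 CPM in wild type (1671 to 1765), and Sox2 and Dppa1 were at or under 1 CPM in both knockouts. The same sum averaged 151 CPM in Ttf1 knockout, 161 CPM in Zfp622 knockout and 159 CPM in wild-type L2C embryos. Markers of the 2-cell stage summed to 386 CPM in Ttf1 knockout (354 to 448), 353 CPM in Zfp622 knockout (319 to 388) and 225 CPM in wild-type morulae (190 to 251), and oocyte markers to 78.1 CPM in Ttf1 knockout, 72.8 CPM in Zfp622 knockout and 52.5 CPM in wild type. Cumulus and granulosa markers summed to 29.4 CPM in Ttf1 knockout, 30.6 CPM in Zfp622 knockout and 14.7 CPM in wild type, with 10 of 12 at or under 1 CPM. Blood markers summed to 31.2 CPM in Ttf1 knockout, 36.2 CPM in Zfp622 knockout and 13.9 CPM in wild type, with 10 of 12 at or under 1 CPM, and all 10 sperm markers were at or under 1 CPM. The part of these differences in the members' changes was not tested. The stage comparison shares the wild-type morula libraries with the knockout comparisons, so their values only stand side by side. Eif3d had log2 fold changes of -0.42 in Ttf1 knockout, -0.53 in Zfp622 knockout and 3.85 between the stages in wild type, and Eif5a2 had 0.99, 0.86 and -1.06 in these comparisons.

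Whether a knockout effect differed between the stages was tested directly, as the effect at morula minus the effect at L2C. For Ttf1 knockout 12 of 55 members differed, 6 with a higher and 6 with a lower effect at morula, where 21.2% of all tested genes differed, 12.5% higher and 8.65% lower. For Zfp622 knockout 6 members differed, 2 higher and 4 lower, where 10.7% of all tested genes differed, 6.45% higher and 4.21% lower. The shares of members, 21.8% for Ttf1 knockout and 10.9% for Zfp622 knockout, are near these backgrounds. Eif1 had the log2 difference 0.62 for Ttf1 knockout (adjusted p = 0.000435), Eif2b1 had -0.54 (adjusted p = 0.002) and Eif1a had -0.52 (adjusted p = 0.00103). Eif3f, which was higher in Ttf1 knockout at L2C, had a difference of -0.49 (adjusted p = 0.0034). Without the wild-type libraries marked by a second index number 8 of the 12 stayed called. For Zfp622 knockout Eif1a had the log2 difference -0.39 (adjusted p = 0.0205) and Eif3a -0.40 (adjusted p = 0.0175). The Zfp622 split was 1 higher and 6 lower with DESeq2 size factors and 3 higher and 3 lower with total counts only. Its count fell to 1, Eif5a2, without the wild-type libraries marked by a second index number. It was 3 without wild-type L2C library 3, wild-type morula library 3 or Zfp622 knockout morula library 4, and 2 without Zfp622 knockout L2C library 3.

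Members distal to an edited gene on its chromosome were also counted apart. On chromosome 15, Eif3e, Eif3h, Eef1d, Eif3d, Eif3l and Eif4b lie distal to Zfp622. In Zfp622 knockout morulae 5 of these 6 were lower (83.3%, median log2 fold change -0.26), and in Ttf1 knockout morulae 3 of 6 (median -0.22). Without wild-type libraries 3 and 4 the calls of Eif3h, Eef1d and Eif4b in Zfp622 knockout were lost, while those in Ttf1 knockout stayed. Of all 476 tested genes distal to Zfp622, 18.9% were lower in Zfp622 knockout (median -0.06) and 19.1% in Ttf1 knockout (median -0.01). Of genes elsewhere on autosomes, 13.5% were lower in Zfp622 knockout (median 0.03) and 18.2% in Ttf1 knockout (median 0.03). Of members elsewhere on autosomes, 19.6% were lower in Zfp622 knockout and 21.7% in Ttf1 knockout. On chromosome 2, Eif3m, Eif3j1 and Eif2s2 lie distal to Ttf1. At L2C 1 of these 3 was lower in Ttf1 knockout (median -0.33), where 2.17% of the 1015 tested genes distal to Ttf1 and 0.71% of genes elsewhere were lower. At morula edgeR called none of the 3 (median -0.14), and their unadjusted p ran from 0.0507 to 0.255. Of the 951 tested genes distal to Ttf1, 29.4% were lower there (median -0.17), against 17.4% of genes elsewhere on autosomes (median 0.04).

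The share of each minor paralog in its pair was compared over libraries with 2-sided exact permutation tests, 30 in all, of which 4 against 4 libraries allow no p below 0.0286. Each share is a percent of the pair's counts per kilobase of merged exons, not of its counts. Eif1b made up 9.49, 9.91, 9.97 and 8.69% of Eif1 and Eif1b counts per kilobase in Ttf1 knockout morulae. It made up 10.5, 8.12, 9.11 and 9.76% in Zfp622 knockout and 15.4, 13, 12.5 and 13.8% in wild type. Wild type lay above both knockouts (exact p = 0.0286, adjusted 0.107, in each). Eif5a2 made up 0.183% of its pair in Ttf1 knockout, 0.163% in Zfp622 knockout and 0.101% in wild-type morulae (exact p = 0.0286, adjusted 0.107, in each). Eif4e1b made up 0.16% of Eif4e and Eif4e1b counts per kilobase in wild-type morulae and 3.08% in wild-type L2C embryos. Eif4a2 made up 39.2% of its pair in Ttf1 knockout, 39.8% in Zfp622 knockout and 35.6% in wild-type morulae. Copies cover 68.7% of the Eif4a1 and 11.3% of the Eif4a2 transcript. They cover 25.9% of the Eif1 and 30.2% of the Eif5a transcript, but none of Eif1b and Eif5a2. Reads from copied stretches can be missing, so the shares of these minor paralogs can be too high. Eif1ax, which is X-linked, held 27.9 to 35.1% of its pair over the 6 groups, with no p below 0.143. None of the 30 comparisons passed the adjustment, which at least 18 tests at the smallest p would have been needed for, so the adjusted values say nothing about stability.

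Neighbouring genes of the pathway were counted from 4 lists, with all wild-type libraries. Of all tested genes, 37.9% were higher and 46.1% lower in wild-type morulae than in wild-type L2C embryos. At morula 21.3% were higher and 17.9% lower in Ttf1 knockout, and 15.6% higher and 13.5% lower in Zfp622 knockout. Of 8 tested regulators left out by the rule, 1 was higher and 7 were lower in wild-type morulae than in wild-type L2C embryos. At morula 3 were higher and 2 lower in Ttf1 knockout, and 2 higher and 0 lower in Zfp622 knockout. Eif2ak1, the haem-regulated eIF2 kinase, averaged 33.1 CPM in Ttf1 knockout morulae, 33.3 CPM in Zfp622 knockout and 19.3 CPM in wild type (log2 fold change 0.79 in both, adjusted p = 9.16e-05 in Ttf1 knockout and 0.000176 in Zfp622 knockout). Eif4ebp1, which blocks eIF4E, averaged 335 CPM in Ttf1 knockout (-0.38, adjusted p = 0.00219), 389 CPM in Zfp622 knockout and 437 CPM in wild-type morulae. It averaged 34.5 CPM in wild-type L2C embryos and was the regulator that rose with stage. Eef2k, the kinase that inhibits eEF2, averaged 0.864 CPM in wild-type morulae and 17 CPM in wild-type L2C embryos (-4.31).

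Of 9 termination and recycling genes 7 rose and 1 fell between the stages, 4 were lower in Ttf1 knockout morulae and 3 in Zfp622 knockout, and none was higher. The shares called were 88.9% between the stages, 44.4% in Ttf1 knockout morulae and 33.3% in Zfp622 knockout morulae. They are near the 84%, 39.2% and 29.1% of all tested genes called in these comparisons. Etf1, the release factor that reads stop codons, averaged 623 CPM in Ttf1 knockout, 646 CPM in Zfp622 knockout and 853 CPM in wild-type morulae, with log2 fold changes of -0.44 (adjusted p = 3.18e-05) in Ttf1 knockout and -0.39 (adjusted p = 0.00019) in Zfp622 knockout. Abce1, which splits ribosomes after termination, averaged 572 CPM in Ttf1 knockout (-0.30), 549 CPM in Zfp622 knockout (-0.36) and 709 CPM in wild type. Among poly(A)-binding protein genes and their partners, 3 of 5 tested were higher in each knockout at morula, 0 were lower in Ttf1 knockout and 1 was lower in Zfp622 knockout. The lower one, Pabpc4, had a log2 fold change of -0.23 (adjusted p = 0.0173) that was not called without wild-type libraries 3 and 4. Of the 3 higher ones, Paip1 and Paip2 were not called in either knockout without these libraries. The calls of Paip2 were lost under 12 of 15 alternatives in Ttf1 knockout and 9 of 15 in Zfp622 knockout. Paip2b, an inhibitor of poly(A)-binding protein, averaged 80.7 CPM in Ttf1 knockout (0.77, adjusted p = 2.83e-05), 75.2 CPM in Zfp622 knockout (0.67, adjusted p = 0.000179) and 47.6 CPM in wild type. Of 9 hypusine and diphthamide genes, which modify eIF5A and eEF2, 4 were lower and 0 higher in Ttf1 knockout, and 2 were lower and 1 higher in Zfp622 knockout. Dohh, which completes hypusine, had log2 fold changes of -0.69 in Ttf1 knockout and -0.55 in Zfp622 knockout. Both calls were lost without wild-type libraries 3 and 4, and that in Zfp622 knockout also without either of them or without Zfp622 knockout library 2 or 4. Without wild-type libraries 3 and 4, Dph1 and Dph6 in Ttf1 knockout and Dph2 and Dph7 in Zfp622 knockout were not called either. All 3 calls of this list in Zfp622 knockout were thus lost.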

How the data were processed

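Poly(A) RNA was reverse transcribed from oligo-dT with template switching, and both ends of fragments were read for 150 bases, per the labels' protocols. The authors aligned reads with HISAT2 2.2.1, per the submitters' processing notes, and deposited counts of read pairs per gene made with featureCounts 2.0.1 and Ensembl release 99 on GRCm38, per the file headers. Neither strand nor reads that map to several places were used. Symbols matched 55144 of 55471 gene identifiers. Groups follow the sample titles, since the genotype and strain labels of the Zfp622 libraries count upward from library to library. By their labels the libraries are separate pools, and p-values measure the spread between these pools.

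Genes were kept by filterByExpr, scaled by TMM and fitted with robust quasi-likelihood models of edgeR 4.0.16 in R 4.3.3, with p-values adjusted by Benjamini-Hochberg over all tested genes and called at 0.05. Knockouts were compared within a stage over 12 libraries, the stages and the differences of effects over all 24. The fit was tested on simulated data. Of the members, 55 were tested at L2C and between stages and 54 at morula. Eef1a2 was tested nowhere and Eef1akmt3 not at morula. Levels per kilobase use merged exon lengths. Copies are stretches of at least 150 bases with at least 97% identity to the longest coding transcript, found with blastn 2.17.0, and 11 members have over 25% of it in copies. Alternatives were DESeq2 1.42.0, its size factors, total counts only, no filter, only the groups compared, replicate number as a block, each library left out and omission of the wild-type libraries marked by a second index number. Transcript length was added after seeing the data.

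Members and lists were chosen with earlier results of these data known. The naming rule covered both targets, paralog pairs, the TOP list and all members called in a knockout comparison of up to 8 calls. Where there were more calls it took the 6 with the smallest p in each direction. It added the 5 largest rises and falls without overlap between the stages, the 3 with the smallest p in each direction among differences between knockouts or effects, the 5 highest and 3 lowest members per length, and up to 4 called genes of each neighbour list. Other members were named to account for each role, after their values were seen.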

Additional observations from a re-analysis of the deposited data

Results flagged for a closer look

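In 4 of 200 groups of 4 libraries examined, 1 library stood apart from the other 3, and chance flags about 1 in 20 groups. Eef1akmt1 was highest in wild-type morula library 3 (170 CPM). Eef1b2 was lowest in wild-type L2C library 2 (39.5 CPM), Eif2d lowest in Zfp622 knockout morula library 4 (189 CPM), and Eif5 highest in Ttf1 knockout morula library 3 (2829 CPM).

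The effect of Ttf1 knockout differed between morula and L2C, by the test of the difference itself, for 12 members, given here as the log2 effect at morula minus that at L2C. It was higher at morula for Eif4e3 (2.38, adjusted p = 0.000581), Eef1akmt2 (0.71, adjusted p = 0.0302), Eif1 (0.62), Eif5b (0.45, adjusted p = 0.0223), Eif4a2 (0.44, adjusted p = 0.0273) and Eif2s2 (0.43, adjusted p = 0.00966). It was lower at morula for Eif3l (-0.68, adjusted p = 0.00793), Eif2b1 (-0.54), Eif1a (-0.52), Eif3f (-0.49), Eif2d (-0.43, adjusted p = 0.0454) and Eif2a (-0.38, adjusted p = 0.00693), the last not called without a filter. Of these, Eef1akmt2, Eif2d, Eif3l and Eif4a2 were lost without the wild-type libraries marked by a second index number. Eif2d was also lost without Ttf1 knockout L2C library 2 or 4, Ttf1 knockout morula library 2, 3 or 4, wild-type L2C library 2, 3 or 4 or wild-type morula library 1, 2 or 3. Eef1akmt2 was also lost without a filter and without any one of 8 libraries, namely Ttf1 knockout L2C libraries 2, 3 and 4, Ttf1 knockout morula library 1, wild-type L2C libraries 1 and 2 and wild-type morula libraries 3 and 4. Eif5b was lost without Ttf1 knockout L2C library 3 or 4, Ttf1 knockout morula library 3, wild-type L2C library 2 or wild-type morula library 1 or 2. Eif4a2 was also lost without Ttf1 knockout L2C library 2 or 3, Ttf1 knockout morula library 3, wild-type L2C library 4 or wild-type morula library 2 or 4.

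The effect of Zfp622 knockout differed in the same test for Eif4e1b (1.22, adjusted p = 0.03) and Eif4a2 (0.44, adjusted p = 0.0447), higher at morula, and for Eif2b1 (-0.41, adjusted p = 0.0309), Eif3a (-0.40), Eif1a (-0.39) and Eif3f (-0.37, adjusted p = 0.0412), lower at morula. All 6 were lost without the wild-type libraries marked by a second index number. Eif4a2 was lost under 17 of 22 alternatives, among them without wild-type L2C library 1, 3 or 4, any wild-type morula library, Zfp622 knockout L2C library 1, 3 or 4 or Zfp622 knockout morula library 1 or 4. Eif3f was lost under 11, among them without wild-type L2C library 3, wild-type morula library 2 or 3, Zfp622 knockout L2C library 3 or 4 or Zfp622 knockout morula library 2, 3 or 4. Eif2b1 was lost without wild-type L2C library 1 or 3, wild-type morula library 3, Zfp622 knockout L2C library 1 or 3 or Zfp622 knockout morula library 1 or 4. Eif4e1b was lost without wild-type L2C library 4, wild-type morula library 1 or 4, Zfp622 knockout L2C library 3 or Zfp622 knockout morula library 4.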

How the results depend on the processing

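Counts of members called kept within 1.5 times their main value under most alternatives. In Ttf1 knockout L2C embryos, 3 members became 7 without a filter, adding Eef1akmt4, Eif3j1, Eif3j2 and Eif3l. In Zfp622 knockout L2C embryos, 0 became 1 with DESeq2. Between the knockouts at L2C, 0 became 1 (Eif2s2) with DESeq2, without a filter and with only those groups, and at morula 0 became 1 (Eif3e) with DESeq2. Without the wild-type libraries marked by a second index number, calls fell to 13 in Ttf1 knockout morulae, to 11 in Zfp622 knockout morulae and to 1 for the Zfp622 difference between stages. Eif1b between the wild-type stages, not called at 0.15, was -0.43 with total counts only. The cause of these changes was not tested. Leaving out each library in turn gave 2 to 3 calls in Ttf1 knockout L2C, 0 in Zfp622 knockout L2C, 0 between the knockouts at L2C, 18 to 22 in Ttf1 knockout morulae, 18 to 21 in Zfp622 knockout morulae, 0 to 1 between the knockouts at morula, 49 to 51 between stages, 9 to 15 for the Ttf1 and 2 to 9 for the Zfp622 difference of effects. Libraries of the same number did not pair (correlations -0.164 to 0.0859). With the replicate block, 3, 0, 0, 20, 19, 0, 50, 12 and 5 members were called, in Ttf1 and Zfp622 knockout and between the knockouts at L2C, in the same 3 comparisons at morula, between stages, and for the Ttf1 and Zfp622 differences of effects, and Eif3h in Zfp622 knockout morulae was not called. Over the named genes and all comparisons, leaving out 1 library lost a call 178 times and gained one 41 times. Depth limits Eif4e3, Eif4e1b, Eef1akmt3 and Eef1a2, which lie near 1 CPM or below in wild-type morulae.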

Other observations

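The X-linked members Eif2s3x and Eif1ax were not called in either knockout. Eif2s3x was called in Zfp622 knockout morulae without a filter or without Zfp622 knockout library 2. Eif1ax averaged 121 ± 14.5 CPM in Zfp622 knockout L2C embryos and 99 ± 4.9 CPM in wild type (log2 fold change 0.29, adjusted p = 0.678), without overlap between the libraries. At L2C Xist averaged 6.53 CPM in Zfp622 knockout and 3.2 CPM in wild type. The Y-linked genes Eif2s3y, Ddx3y, Kdm5d and Uty summed to 51.5 CPM in Zfp622 knockout and 69.3 CPM in wild type. Pools of embryos can differ in sex, and the part of this in the Eif1ax difference was not tested.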
